A study of Homo sapiens with 14 samples.

Results

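The 38 genes described here belong to the unfolded protein response and the integrated stress response, which cells use when proteins misfold in the endoplasmic reticulum (ER) or when amino acids run short. They were chosen by name, and for each name the locus with the highest mean value was taken. All 38 were found among the 27543 named loci of the deposited table, and all 38 reached 1 FPKM (a level scaled by transcript length and sequencing yield) in at least 2 libraries. The 38 fall into 18 ER chaperones, folding and degradation genes, 4 sensors and XBP1, 8 genes of ATF4 and its stress regulators, and 8 amino acid and one-carbon genes. ERO1L is listed as ERO1A in current annotation. HSP90B1 shares its locus with MIR3652, CANX with MAML1 and DDIT3 with MIR616, so the values of these 3 may hold reads of the neighbour.

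RNA was sequenced from MCF-10A cells, a non-tumorigenic human mammary epithelial line, harvested 2 days after retroviral infection. MRTFB is a cofactor of the transcription factor SRF that monomeric (G-) actin holds inactive, and YAP is a cofactor of TEAD transcription factors. Each of the 7 groups held 2 libraries. The MRTFB dN Y305A/dPY group expressed a MRTFB that binds neither G-actin, SRF nor YAP, the MRTFB dN Y305A group one that binds neither G-actin nor SRF, the MRTFB dN dPY group one that binds neither G-actin nor YAP, and the MRTFB dN group one that lacks G-actin binding alone. The YAP 5SA group expressed a hyperactive YAP. The Puro vector and Hygro vector groups carried empty retroviral vectors with different selection genes. Every group, the empty vectors included, was therefore infected, and introduced MRTFB or YAP was made by a retrovirus on top of the cells' own copies. The labels do not say which vector carried each construct. The Puro vector served as the control of the MRTFB groups and the Hygro vector as that of YAP 5SA, and calls that differ against the other vector are given beside the results. The labels do not say that the 2 libraries of a group came from separate cultures, so the p-values measure only the spread between these libraries, which may be technical.

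Misfolded proteins in the ER are sensed by IRE1 (ERN1), PERK (EIF2AK3) and ATF6. IRE1 splices the mRNA of XBP1, and spliced XBP1 and cleaved ATF6 switch on ER chaperones and degradation factors. PERK and related kinases phosphorylate eIF2, which lowers general translation and favours translation of ATF4. ATF4 in turn activates genes of amino acid synthesis, import and one-carbon metabolism, together with CHOP (DDIT3). FPKM measure mRNA and hold neither XBP1 splicing nor ATF4 translation.

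The promoters of some of these genes carry known binding elements, shown here as a description of the members. RefSeq promoters (build GRCh38.p14, from 250 bases before to 50 after the start) were at hand for 35 of the 38 members. PDIA3, SHMT2 and SLC7A11 had none. The ER stress element (CCAAT, any 9 bases, CCACG, on either strand) lay in the promoter of 7 of these 35 members, against 0.0916% of all 27305 genes. All 7 are ER chaperones, folding genes or XBP1. This element was first described in promoters of ER chaperones, so its presence there is background rather than a result. The lines below give each match in capitals with up to 10 flanking bases, 5′ to 3′, on the strand that reads the element in the written direction.
HSPA5 ER stress element, chr9:125241381-125241419, minus strand: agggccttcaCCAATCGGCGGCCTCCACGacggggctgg
HSP90B1 upstream ER stress element, chr12:103930206-103930244, plus strand: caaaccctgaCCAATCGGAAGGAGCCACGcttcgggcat
HSP90B1 downstream ER stress element, chr12:103930311-103930349, minus strand: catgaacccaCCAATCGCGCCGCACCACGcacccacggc
CALR ER stress element, chr19:12938374-12938412, minus strand: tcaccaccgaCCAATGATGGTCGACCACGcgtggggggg
CANX ER stress element, chr5:179698768-179698806, plus strand: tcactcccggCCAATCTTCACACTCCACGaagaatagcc
PDIA6 ER stress element, chr2:10812843-10812881, minus strand: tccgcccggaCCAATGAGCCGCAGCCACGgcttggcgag
CRELD2 ER stress element, chr22:49918544-49918582, minus strand: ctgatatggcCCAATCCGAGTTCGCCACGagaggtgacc
XBP1 ER stress element, chr22:28800593-28800631, minus strand: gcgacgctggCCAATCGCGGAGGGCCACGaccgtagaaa

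The unfolded protein element TGACGTGG, read by XBP1 and ATF6, lay in the promoter of HYOU1 alone among the 35 members, against 0.927% of all genes. The C/EBP-ATF element TGATGNAAN, read by ATF4 with a partner, lay in the promoters of HERPUD1, CHAC1, ASNS and SLC3A2, against 4.45% of all genes. Both were searched on either strand, and the capitals mark the match as before. A match describes these letters only.
HYOU1 unfolded protein element, chr11:119057376-119057403, minus strand: gctggccccgTGACGTGGtccaatccca
HERPUD1 C/EBP-ATF element, chr16:56931955-56931983, minus strand: gggcacgggcTGATGCAACccgccgcgtc
CHAC1 C/EBP-ATF element, chr15:40953251-40953279, minus strand: ctggcaggagTGATGCAACggcaggggag
ASNS C/EBP-ATF element, chr7:97872458-97872486, minus strand: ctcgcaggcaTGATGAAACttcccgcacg
SLC3A2 C/EBP-ATF element, chr11:62881725-62881748, minus strand: ggagcTGATGTAAGgagtcctgca

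HERPUD1 and DNAJB9, ER genes that differed between the MRTFB constructs, are shown with their whole promoter windows. The HERPUD1 window (chr16:56931892-56932191, plus strand) holds the C/EBP-ATF element in capitals, here on the opposite strand, and the DNAJB9 window (chr7:108569624-108569923, plus strand) holds none of the elements searched. Only the letters given above were searched. Other or inexact forms of an ER stress element are therefore not marked, and a window without a match may hold them.
HERPUD1 promoter: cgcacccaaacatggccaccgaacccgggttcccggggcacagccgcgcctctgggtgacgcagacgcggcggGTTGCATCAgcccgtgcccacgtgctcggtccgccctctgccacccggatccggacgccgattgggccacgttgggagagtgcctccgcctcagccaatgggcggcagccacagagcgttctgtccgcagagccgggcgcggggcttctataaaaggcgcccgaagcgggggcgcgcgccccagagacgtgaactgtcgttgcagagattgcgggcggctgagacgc
DNAJB9 promoter: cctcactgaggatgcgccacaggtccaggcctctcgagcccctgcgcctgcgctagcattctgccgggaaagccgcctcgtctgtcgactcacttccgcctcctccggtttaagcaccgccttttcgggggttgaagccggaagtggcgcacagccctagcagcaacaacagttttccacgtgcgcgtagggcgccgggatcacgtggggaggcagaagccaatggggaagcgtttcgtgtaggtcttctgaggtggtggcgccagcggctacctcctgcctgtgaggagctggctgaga

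The introduced genes matched the labels: MRTFB (listed as MKL2) stood at 165 to 610 FPKM in the 8 MRTFB libraries and at 3.06 to 6.60 FPKM in the other 6. Its level differed between constructs, with 610 and 343 FPKM in MRTFB dN Y305A/dPY cells and 404 and 294 FPKM in MRTFB dN Y305A cells. MRTFB dN dPY cells had 286 and 171 FPKM and MRTFB dN cells 300 and 165 FPKM. The part of construct level in the results was not tested. For YAP1 the YAP 5SA libraries held 625 and 529 FPKM, against 32.4 and 23.3 FPKM in Hygro vector cells. Puro vector replicate 1 and MRTFB dN dPY replicate 1 stood apart. Puro vector replicate 1 had a depth of 0.319 relative to Hygro vector replicate 1, the lowest of the 14 (the highest was 1.40), and 4780 unnamed loci at 1 FPKM or more, against 211 to 669 elsewhere. Unnamed loci held 58.8% of its FPKM, against 9.99% to 38.6% in the other libraries. MRTFB dN dPY replicate 1 holds no values for chromosome 7 after PPIA and for chromosomes 8, 9 and X, which were treated as missing, so HSPA5, PDIA4, DNAJB9, VLDLR, ASNS and PSAT1 rest on replicate 2 alone in that group. All 8 mammary epithelial markers were above 0 in every library with a value. Their sum was 47200 and 24900 FPKM in MRTFB dN cells, against 2170 and 2010 FPKM in Puro vector cells, the highest and the lowest group. This sum leans on KRT17 (606 to 43200 FPKM), whereas CDH1, EPCAM, ITGB4, EGFR and TP63 stayed at or below 705 FPKM. Singly the 8 split: 3 were called higher and 3 lower in MRTFB dN than in Puro vector cells (limma, adjusted p under 0.05). Over all loci 21.8% were higher and 15% lower. Of the markers of other cell types, PTPRC, CD3E, HBB, COL1A2, LUM, PDGFRA, PECAM1, VWF and TEK stayed at or below 0.304 FPKM. CD14 ranged over 1.31 to 149 FPKM. The leukocyte markers, CD14 among them, summed to 3.98 and 4.24 FPKM in MRTFB dN dPY cells, 2.68 and 4.73 FPKM in MRTFB dN cells and 2.01 and 2.30 FPKM in YAP 5SA cells, against 10.2 to 149 FPKM in the other libraries, and their part in the results was not tested. CDH5, of the endothelial markers, had 14.6 and 4.51 FPKM in MRTFB dN Y305A/dPY cells, 8.30 and 4.90 FPKM in MRTFB dN Y305A cells and 2.77 and 2.78 FPKM in MRTFB dN cells, against 0.0391 and 0 FPKM in Puro vector cells. DCN, of the fibroblast markers, had 0 and 0.29 FPKM in MRTFB dN Y305A/dPY cells, 0 and 0.121 FPKM in MRTFB dN Y305A cells, 0.0574 and 0.732 FPKM in MRTFB dN dPY cells and 0.182 and 0.387 FPKM in MRTFB dN cells, against 2.10 and 13.7 FPKM in Puro vector cells. COL3A1, COL1A1 and LYZ reached 3.76, 3.12 and 2.64 FPKM. The part of CDH5 and DCN in the results was not tested either. In bulk RNA, fewer cells expressing a gene and less RNA per cell cannot be told apart.

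The mRNA levels of the members spanned a wide range within each role. HSPA5 (BiP), the main ER chaperone of the HSP70 family, ranged over 96.5 to 364 FPKM, and HSP90B1 (GRP94), its HSP90 partner, over 186 to 2950 FPKM. ATF4, the central factor of the integrated stress response, ranged over 124 to 358 FPKM, whereas its target DDIT3 (CHOP), a factor of stress-induced cell death, ranged over 2.04 to 13.3 FPKM. Among all members STC2, a secreted glycoprotein induced by ER stress, had the widest range, with 318 FPKM as its highest value, 35.0 times its lowest. The narrowest was that of ERO1L, an oxidase that drives disulfide formation, with a highest value 2.35 times the lowest. The lectin chaperones CALR and CANX, which fold glycoproteins, ranged over 174 to 1320 FPKM and 186 to 685 FPKM. The disulfide isomerases PDIA3 and PDIA6 ranged over 99.0 to 461 FPKM and 102 to 606 FPKM. Among the helpers of BiP, its co-chaperone DNAJB11 ranged over 38 to 158 FPKM and its exchange factor HYOU1 over 22.1 to 118 FPKM. The smaller ER proteins SDF2L1, MANF and CRELD2, all induced by ER stress, ranged over 12.7 to 67.6 FPKM, 39.9 to 125 FPKM and 9.62 to 47.6 FPKM. SHMT2, the mitochondrial serine hydroxymethyltransferase, ranged over 32.9 to 87.2 FPKM.

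**Figure D1:**
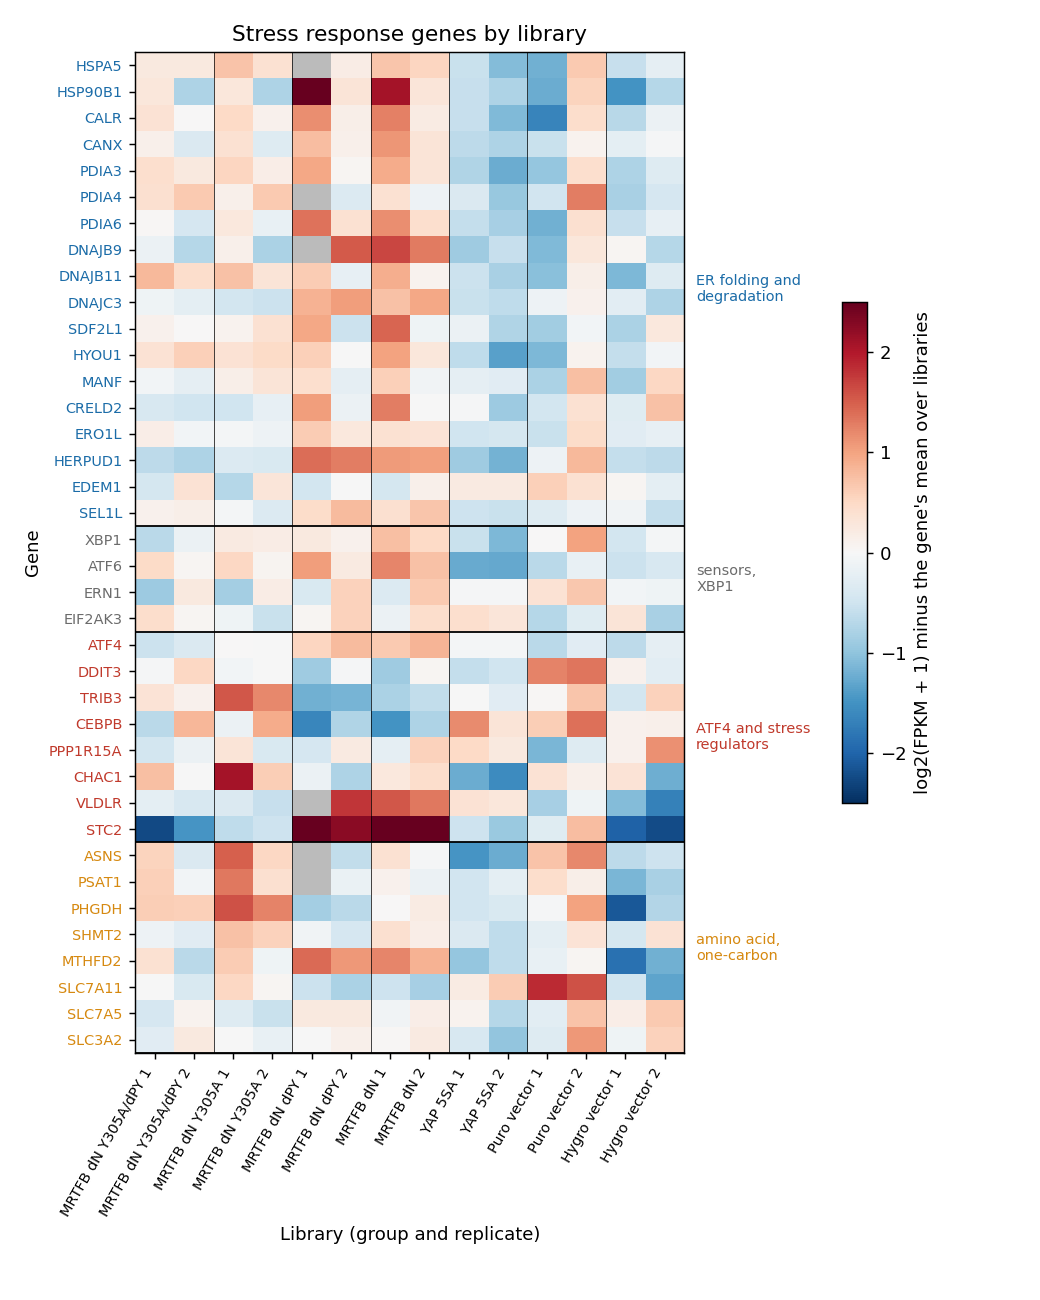
Heat map of the 38 genes (rows, grouped by role) in the 14 libraries (columns, by group and replicate). Colour gives log2(FPKM + 1) minus the gene's mean over libraries, and grey marks the 6 missing values of MRTFB dN dPY replicate 1. STC2 is red in the 4 libraries of MRTFB dN dPY and MRTFB dN, and most ER genes are blue in YAP 5SA and in Puro vector replicate 1.

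Whether MRTFB freed from actin shifts these genes was read from MRTFB dN against the Puro vector. Of the 38 genes 12 changed, 8 higher and 4 lower (limma, adjusted p under 0.05), while 36.8% of all 13137 loci tested changed, 21.8% higher and 15% lower. A share of 12 in 38 is thus near the background. The members that rose were ATF4, the sensor ATF6, the ER genes DNAJB9, DNAJC3 and SEL1L, and STC2, VLDLR and MTHFD2. Those that fell were DDIT3, TRIB3, CEBPB and SLC7A11. Genes that ATF4 or PERK signalling is known to induce went both ways: these 4 fell, and VLDLR and MTHFD2 were among those that rose.

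Among the ER genes 3 of 18 rose and none fell, with a median log2 fold change of 0.89 for the 18, against 0.09 over all loci. HSPA5 had 360 and 322 FPKM in MRTFB dN cells, against 96.5 and 349 FPKM in Puro vector cells, so the groups overlapped (log2 fold change 0.89 ± 0.52 SE, adjusted p = 0.21). HSP90B1 had 2220 and 652 FPKM in MRTFB dN cells, against 223 and 775 FPKM in Puro vector cells, and these too overlapped (1.53 ± 0.86, adjusted p = 0.18). None of the 7 members with an ER stress element in the promoter was among the 12, while 36.8% of all loci were called. Of these 7, HSP90B1 (1.53), CALR (1.35), PDIA6 and CANX had values above the median of the 18, HSPA5 lay near it, and CRELD2 and XBP1 lay below it. The missed calls thus do not show equal levels. DNAJB9 (ERdj4), a BiP co-chaperone and XBP1 target, had 50.1 and 38.6 FPKM in MRTFB dN cells, against 6.49 and 18.4 FPKM in Puro vector cells, which do not overlap. It rose 3.73-fold on the FPKM + 1 scale, which understates the change of low genes (1.90 ± 0.49, adjusted p = 0.014). DNAJC3 (p58IPK), an inhibitor of PERK and ER co-chaperone, had 41.2 and 48.6 FPKM in MRTFB dN cells, against 22.2 and 26.2 FPKM in Puro vector cells (0.86 ± 0.24, adjusted p = 0.017). SEL1L, the adaptor of the HRD1 ubiquitin ligase in ER-associated degradation, had 20.1 and 24.7 FPKM in MRTFB dN cells, against 11.8 and 13.6 FPKM in Puro vector cells (0.77 ± 0.25, adjusted p = 0.032). Both DNAJC3 and SEL1L were higher in each MRTFB dN library than in either Puro vector library. PDIA4 (-0.27), a disulfide isomerase, and EDEM1 (-0.64), a lectin that delivers misfolded glycoproteins to degradation, had the only negative values among the 18. The other 11 ER genes that did not pass had values of 0.27 for MANF to 1.35 for CALR. HYOU1 came nearest to the threshold, with 118 and 71.9 FPKM in MRTFB dN cells, against 26.5 and 62.3 FPKM in Puro vector cells (1.16 ± 0.44, adjusted p = 0.059).

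The ER chaperones also differed within groups. In MRTFB dN cells 15 of the 18 ER genes were higher in replicate 1 than in replicate 2, with a median ratio of 1.58, and in MRTFB dN dPY cells 12 of the 15 with both values were, with a median ratio of 1.57. In the Puro vector group 1 of 18 was higher in replicate 1, the library of low depth, with a median ratio of 0.429. Over all members 4 of 38 were higher in replicate 1 there (median ratio 0.535), so this was not particular to the ER genes. In MRTFB dN cells 23 of all 38 members were higher in replicate 1 (1.19), and in MRTFB dN dPY cells 19 of 32 (1.25). The share over all loci is not given. Among the ER genes HSP90B1 differed most between replicates, with 2950 FPKM in replicate 1 and 654 FPKM in replicate 2 of MRTFB dN dPY. DNAJB9, DNAJC3, SEL1L and HERPUD1 differed less in MRTFB dN cells, with replicate ratios of 0.816 to 1.30, as did HSPA5 (1.12) and ERO1L (1.03), which were not called. In the Puro vector group the ratios were 0.352 for DNAJB9, 0.514 for HERPUD1, 0.851 for DNAJC3 and 0.871 for SEL1L. The part of depth or library in these differences was not tested.

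Of the sensors only ATF6, the ER-anchored factor released by cleavage, rose: it had 107 and 76.1 FPKM in MRTFB dN cells, against 28.3 and 40.1 FPKM in Puro vector cells (1.40 ± 0.34, adjusted p = 0.0092). XBP1, whose mRNA IRE1 splices, had 93.6 and 77.8 FPKM in MRTFB dN cells, against 55.4 and 111 FPKM in Puro vector cells, with overlapping groups (0.12 ± 0.36, adjusted p = 0.81). ERN1 and EIF2AK3 were low, at 0.891 to 4.66 FPKM and 4.71 to 14 FPKM over all libraries, and did not pass the test.

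Of the 8 genes of ATF4 and its stress regulators 3 rose and 3 fell. ATF4 had 314 and 358 FPKM in MRTFB dN cells, against 124 and 164 FPKM in Puro vector cells, a 2.34-fold rise (1.23 ± 0.29, adjusted p = 0.008). DDIT3 had 2.04 and 4.83 FPKM in MRTFB dN cells, against 12.3 and 13.3 FPKM in Puro vector cells (-1.71 ± 0.36, adjusted p = 0.0049). In neither gene did the groups overlap. TRIB3, a pseudokinase induced by ATF4 and CHOP, had 13.0 and 14.8 FPKM in MRTFB dN cells, against 23.5 and 37.8 FPKM in Puro vector cells (-1.05 ± 0.35, adjusted p = 0.036). CEBPB, a partner of ATF4, had 4.73 and 8.39 FPKM in MRTFB dN cells, against 23.6 and 40.8 FPKM in Puro vector cells (-2.13 ± 0.56, adjusted p = 0.014). Both were lower in each MRTFB dN library than in either Puro vector library. CHAC1, a glutathione-degrading enzyme induced by ATF4, overlapped at 4.76 and 5.44 FPKM in MRTFB dN cells and 5.11 and 4.18 FPKM in Puro vector cells (0.11 ± 0.55, adjusted p = 0.89). PPP1R15A (GADD34), the stress-induced subunit that guides dephosphorylation of eIF2, was not called (0.91 ± 0.44, adjusted p = 0.13).

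STC2 and VLDLR were the called members with the largest rise. STC2 had 283 and 318 FPKM in MRTFB dN cells, against 38.1 and 80.7 FPKM in Puro vector cells, a 5.33-fold rise (2.41 ± 0.37, adjusted p = 0.00088). VLDLR, a lipoprotein receptor induced by ATF4, had 13.4 and 11.2 FPKM in MRTFB dN cells, against 1.75 and 3.57 FPKM in Puro vector cells (1.91 ± 0.30, adjusted p = 0.0013). In both genes every MRTFB dN library was above every vector library.

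The amino acid and one-carbon genes split: MTHFD2, the mitochondrial enzyme of the folate cycle, rose, SLC7A11 (xCT), the cystine importer, fell, and the other 6 did not pass. SLC7A11 had 1.73 and 1.22 FPKM in MRTFB dN cells, against 13.3 and 10.9 FPKM in Puro vector cells, with no overlap (-2.40 ± 0.31, adjusted p = 0.00031). MTHFD2 had 81.0 and 62.6 FPKM in MRTFB dN cells, against 29.8 and 35.4 FPKM in Puro vector cells (1.11 ± 0.40, adjusted p = 0.048). ASNS, asparagine synthetase, had 28.5 and 21.2 FPKM in MRTFB dN cells, against 36.0 and 50.7 FPKM in Puro vector cells (-0.77 ± 0.40, adjusted p = 0.15). PSAT1, of the serine synthesis pathway, had 30.6 and 25.5 FPKM in MRTFB dN cells, against 38.5 and 31.5 FPKM in Puro vector cells (-0.31 ± 0.35, adjusted p = 0.52). ASNS and PSAT1 were lower in both MRTFB dN libraries, but by less than the test could call. SLC7A5 and SLC3A2, the LAT1 amino acid exchanger and its heavy chain, were high throughout, at 283 to 758 FPKM and 189 to 803 FPKM.

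ATF4, VLDLR, STC2 and SLC7A11 were called whichever library was left out, but ATF4 was not when only the compared groups were fitted (adjusted p = 0.12), nor were DNAJC3 (0.12), SEL1L (0.13), ATF6 (0.056), TRIB3 (0.086) and MTHFD2 (0.081). Without MRTFB dN replicate 1 the other 8 were not called, with adjusted p of 0.097 for DNAJB9, 0.054 for DNAJC3, 0.074 for SEL1L, 0.085 for ATF6, 0.058 for DDIT3, 0.17 for TRIB3, 0.11 for CEBPB and 0.23 for MTHFD2, and without Puro vector replicate 1 DNAJB9 (0.096), DNAJC3 (0.077), SEL1L (0.12), ATF6 (0.06) and MTHFD2 (0.17) were not. Without MRTFB dN replicate 2 DNAJC3 (0.086), SEL1L (0.15), TRIB3 (0.082) and MTHFD2 (0.078) were not called, and without Puro vector replicate 2 TRIB3 (0.18), CEBPB (0.07) and MTHFD2 (0.077) were not.

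Whether the falls were called depended on the vector. Against the Hygro vector 10 of the 38 rose in MRTFB dN cells and none fell, while 19.1% of all loci changed, 12% higher and 7.1% lower. ATF4 (1.18, adjusted p = 0.015), ATF6 (1.44, adjusted p = 0.012), DNAJB9 (1.82, adjusted p = 0.026), DNAJC3 (1.37, adjusted p = 0.0023) and SEL1L (0.89, adjusted p = 0.027) rose against this vector too. So did VLDLR (2.81, adjusted p = 0.00014), MTHFD2 (2.58, adjusted p = 0.001) and STC2, whose fold was 27.4 (4.78, adjusted p = 9e-06). HERPUD1, a membrane protein of ER-associated degradation, rose only against this vector (1.67, adjusted p = 0.0022), with 71.7 and 69.7 FPKM in MRTFB dN cells, against 21.9 and 21.2 FPKM in Hygro vector cells. PHGDH, the entry enzyme of serine synthesis, likewise rose here (1.54, adjusted p = 0.028), whereas its value against the Puro vector was -0.37 (adjusted p = 0.52). The 4 genes that fell against the Puro vector did not pass here: DDIT3 stood at -0.34 (adjusted p = 0.57), TRIB3 at -0.76 (adjusted p = 0.16), CEBPB at -1.25 (adjusted p = 0.15) and SLC7A11 at 0.23 (adjusted p = 0.67). TRIB3 and CEBPB were still lower in each MRTFB dN library than in either Hygro vector library (16.5 and 35.1 FPKM for TRIB3, 16.3 and 16.7 FPKM for CEBPB). DDIT3 and SLC7A11 overlapped. These comparisons share the MRTFB dN libraries.

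**Figure D2:**
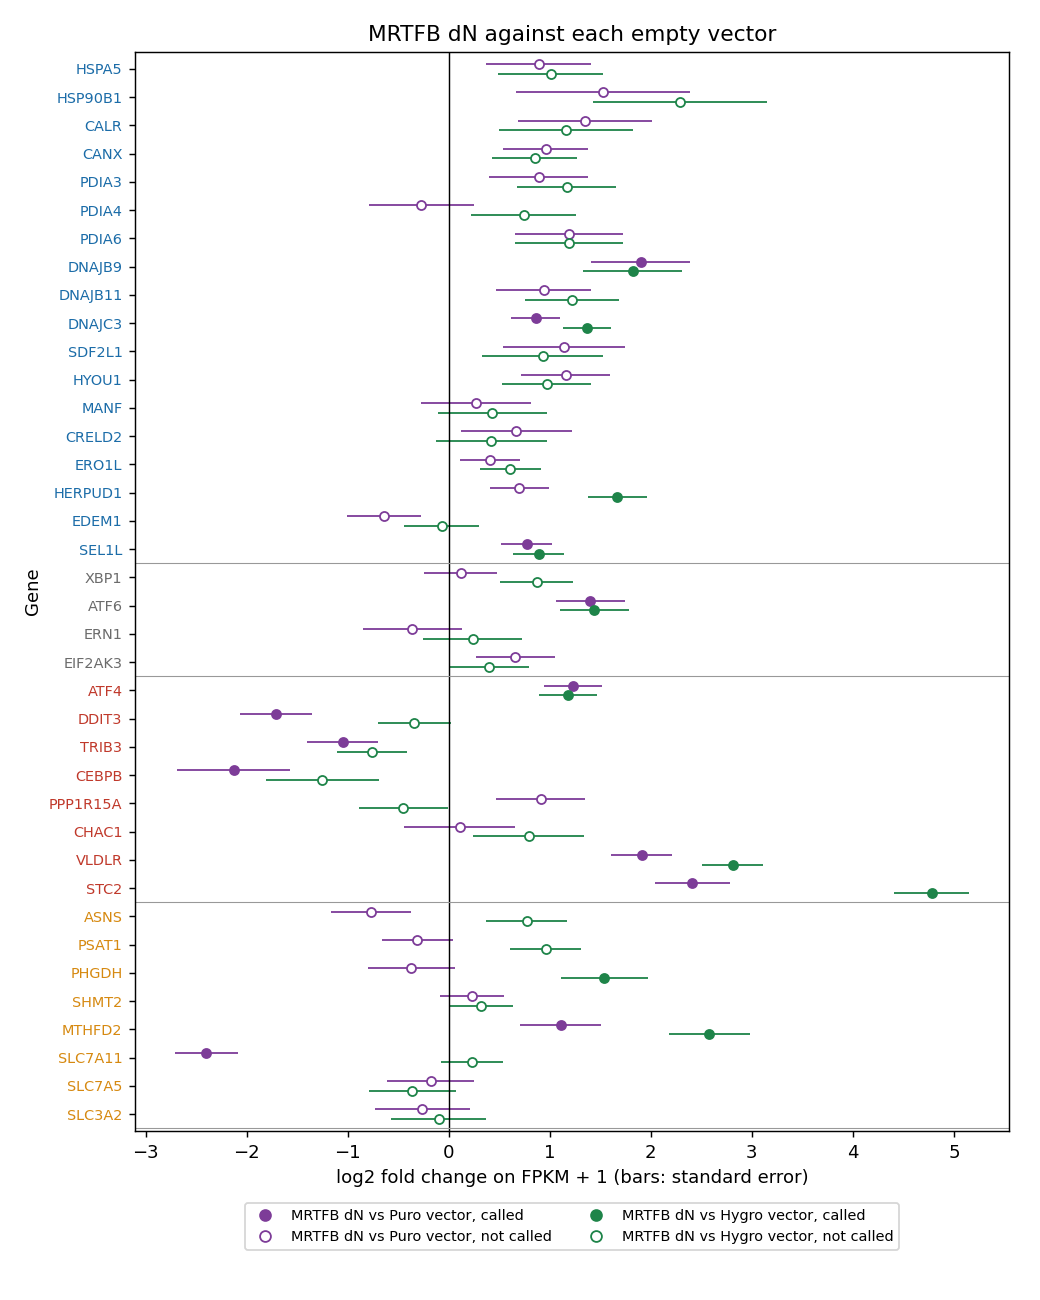
log2 fold change (on FPKM + 1) of each of the 38 genes in MRTFB dN cells, against the Puro vector (purple) and the Hygro vector (green). Points are estimates, bars their standard errors, and filled points passed an adjusted p of 0.05. DNAJB9, ATF6 and ATF4 lie right of 0 against both vectors, whereas SLC7A11 lies at -2.40 against the Puro vector and at 0.23 against the Hygro vector.

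The empty vectors themselves differed in these genes, although the labels call both empty. In Puro vector cells 8 of the 38 were higher than in Hygro vector cells and none was lower, while 14.2% of all loci changed, 5.68% higher and 8.53% lower. Of the amino acid and one-carbon genes 5 of 8 were higher, with a median log2 fold change of 1.37 against -0.07 over all loci. SLC7A11 had 13.3 and 10.9 FPKM in Puro vector cells, against 1.79 and 0.577 FPKM in Hygro vector cells (2.63 ± 0.31, adjusted p = 0.0031). PHGDH had 20.7 and 43.3 FPKM in Puro vector cells, against 4.10 and 12.3 FPKM in Hygro vector cells (1.91 ± 0.43, adjusted p = 0.02). The vector groups overlapped in neither gene. ASNS had 36.0 and 50.7 FPKM in Puro vector cells, against 13.3 and 14.8 FPKM in Hygro vector cells (1.54 ± 0.40, adjusted p = 0.033). MTHFD2 had 29.8 and 35.4 FPKM in Puro vector cells, against 8.57 and 14.2 FPKM in Hygro vector cells (1.47 ± 0.40, adjusted p = 0.035). The 2 Puro vector libraries were above both Hygro vector libraries in each gene. PSAT1 was higher as well, at 38.5 and 31.5 FPKM in Puro vector cells, against 12.3 and 15.7 FPKM in Hygro vector cells (1.26 ± 0.35, adjusted p = 0.041).

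The vectors also differed in STC2, with 38.1 and 80.7 FPKM in Puro vector cells, against 10.8 and 9.19 FPKM in Hygro vector cells (2.36 ± 0.37, adjusted p = 0.0077). DDIT3 had 12.3 and 13.3 FPKM in Puro vector cells, against 5.06 and 3.71 FPKM in Hygro vector cells (1.37 ± 0.36, adjusted p = 0.033). HERPUD1 was the only ER gene of 18 called, at 30.9 and 60.1 FPKM in Puro vector cells, against 21.9 and 21.2 FPKM in Hygro vector cells (0.97 ± 0.29, adjusted p = 0.049). ATF4 itself overlapped, with 124 and 164 FPKM in Puro vector cells and 127 and 170 FPKM in Hygro vector cells (-0.04 ± 0.29, adjusted p = 0.94). TRIB3 overlapped too, at 23.5 and 37.8 FPKM in Puro vector cells and 16.5 and 35.1 FPKM in Hygro vector cells (0.30 ± 0.35, adjusted p = 0.58). STC2 and SLC7A11 were called whichever library was left out. DDIT3, ASNS, PSAT1 and MTHFD2 were called in none of the 4 cases (adjusted p of 0.056 to 0.16, 0.063 to 0.11, 0.055 to 0.15 and 0.065 to 0.14), HERPUD1 was not without Puro vector replicate 2 (0.16) or Hygro vector replicate 1 (0.1) or 2 (0.16), and PHGDH was not without Puro vector replicate 2 (0.061) or Hygro vector replicate 1 (0.071).

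MRTFB dN dPY, which cannot bind YAP, was then set against the Puro vector. Of the 38 genes 9 rose and 6 fell, while 35.8% of all loci changed, 21% higher and 14.8% lower. DNAJB9 (45.2 FPKM in replicate 2), DNAJC3 (45.2 and 51.8 FPKM), SEL1L (20.8 and 26.4 FPKM), ATF6 (95.6 and 53.5 FPKM), ATF4 (291 and 344 FPKM), VLDLR (15.9 FPKM in replicate 2), STC2 (282 and 229 FPKM) and MTHFD2 (92.0 and 72.8 FPKM) rose against the Puro vector values given above, with log2 fold changes of 0.84 for SEL1L to 2.26 for VLDLR. HERPUD1 rose as well, with 91.2 and 83.9 FPKM in MRTFB dN dPY cells, against 30.9 and 60.1 FPKM in Puro vector cells (1.00 ± 0.29, adjusted p = 0.021). ASNS had 13.8 FPKM in MRTFB dN dPY replicate 2, against 36.0 and 50.7 FPKM in Puro vector cells (-1.56 ± 0.48, adjusted p = 0.031). PHGDH had 11.3 and 12.8 FPKM in MRTFB dN dPY cells, against 20.7 and 43.3 FPKM in Puro vector cells (-1.25 ± 0.43, adjusted p = 0.042). The members that fell also included SLC7A11 (-2.38, adjusted p = 0.00034), CEBPB (-2.19, adjusted p = 0.012), DDIT3 (-1.74, adjusted p = 0.0044) and TRIB3 (-1.53, adjusted p = 0.007).

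DDIT3, TRIB3, STC2 and SLC7A11 were called in MRTFB dN dPY cells whichever library was left out, as was VLDLR in the 3 cases that could be run. Without MRTFB dN dPY replicate 1 HERPUD1 (adjusted p = 0.11), ATF6 (0.24), CEBPB (0.098), ASNS (0.052), PHGDH (0.17) and MTHFD2 (0.14) were not called, and without its replicate 2 DNAJC3 (0.056), HERPUD1 (0.059), SEL1L (0.12), ATF4 (0.062), PHGDH (0.095) and MTHFD2 (0.052) were not. Without Puro vector replicate 1 DNAJB9 (0.13), HERPUD1 (0.13), SEL1L (0.09), ATF6 (0.15), ATF4 (0.055) and MTHFD2 (0.11) were not called, and without its replicate 2 CEBPB (0.064), ASNS (0.096) and PHGDH (0.24) were not. Against the Hygro vector 8 rose and only TRIB3 fell (-1.24, adjusted p = 0.028), while 20.5% of all loci changed, 12.3% higher and 8.24% lower. There SLC7A11 stood at 0.25 (adjusted p = 0.64), DDIT3 at -0.38 (adjusted p = 0.51) and CEBPB at -1.31 (adjusted p = 0.13). ASNS (-0.02, adjusted p = 0.98), PHGDH (0.66, adjusted p = 0.32) and DNAJB9 (1.86, adjusted p = 0.053) were not called against this vector either.

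Between MRTFB dN dPY and MRTFB dN, which differ in YAP binding, no member passed (limma), and 0.236% of all loci passed, 0.145% higher and 0.0913% lower. No member had an unadjusted p under 0.05, against 441 of all 13137 loci. HERPUD1 had 91.2 and 83.9 FPKM in MRTFB dN dPY cells, against 71.7 and 69.7 FPKM in MRTFB dN cells (0.30 ± 0.29, adjusted p = 1.0). TRIB3 had 9.55 and 9.76 FPKM in MRTFB dN dPY cells, against 13.0 and 14.8 FPKM in MRTFB dN cells (-0.48 ± 0.35, adjusted p = 1.0). The largest difference was that of PHGDH (-0.88 ± 0.43). A p that misses the threshold does not show equal levels, and the difference seen in PHGDH was not large enough to be called with its standard error.

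**Figure D3:**
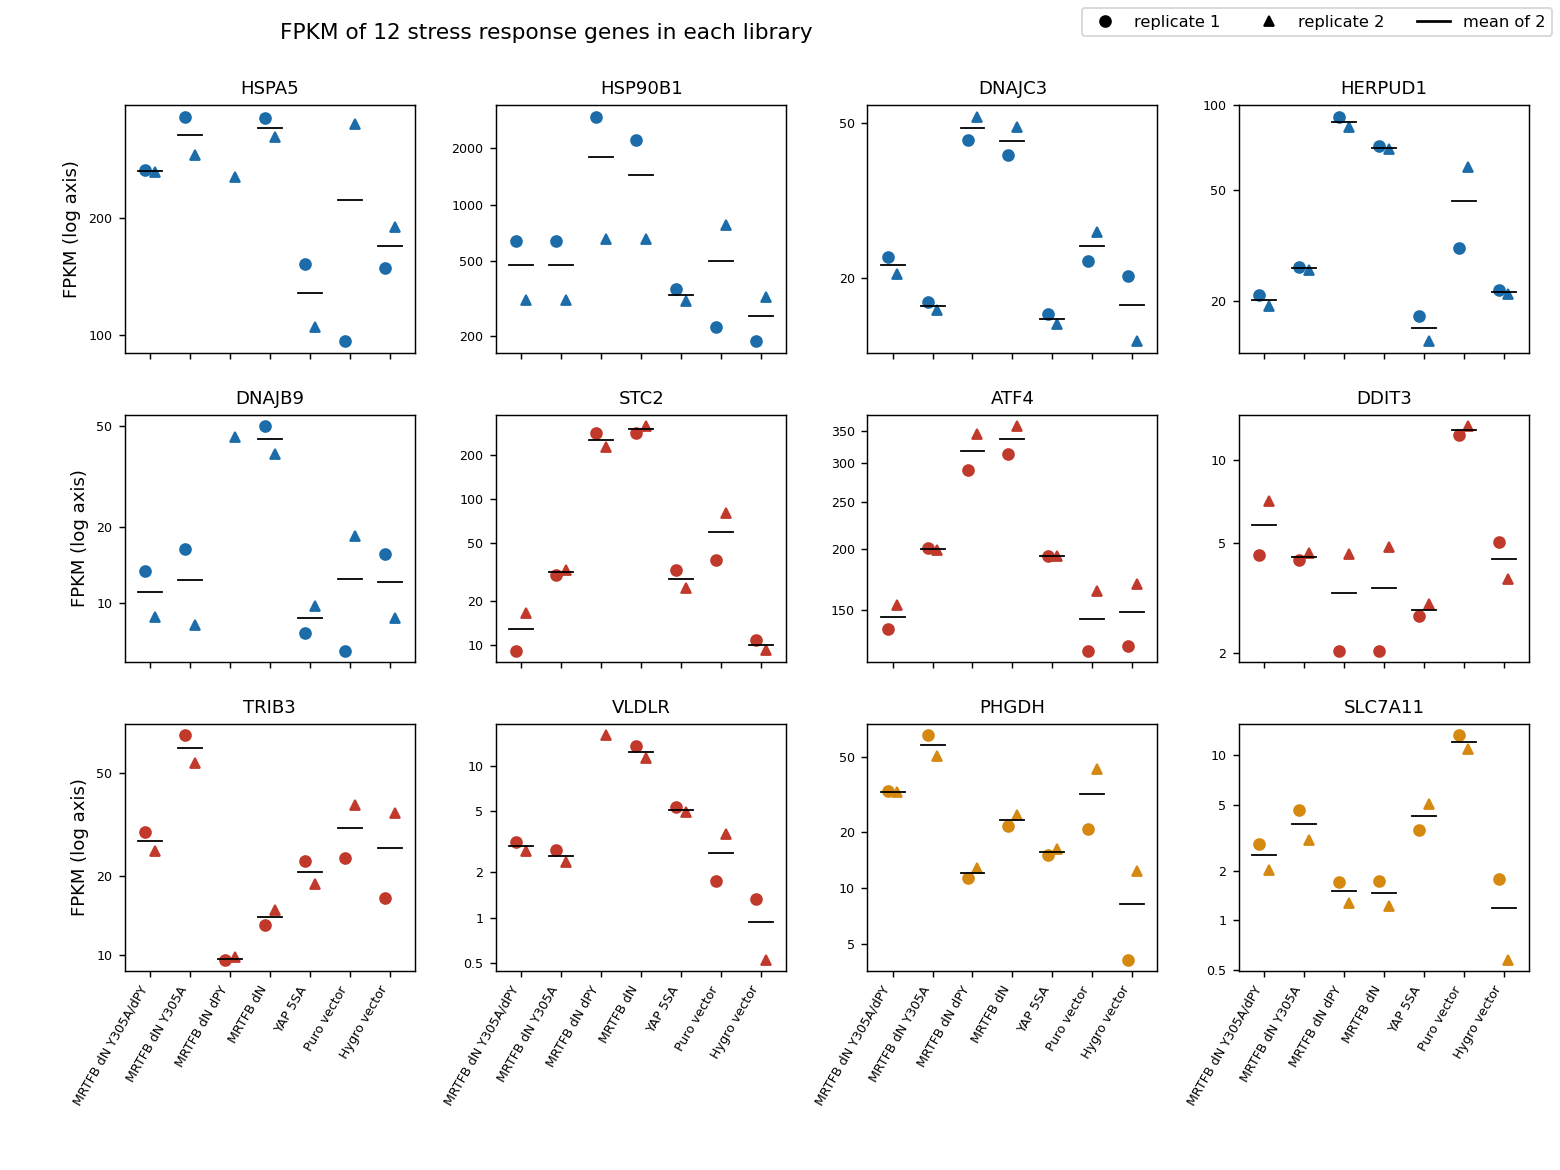
FPKM of 12 genes in each library (log axis, its range set for each gene), by group. Circles are replicate 1, triangles replicate 2 and black lines the mean of the 2, left out where replicate 1 is missing. DNAJC3, HERPUD1, STC2, VLDLR and ATF4 are highest in MRTFB dN dPY and MRTFB dN, where TRIB3 is lowest, and DDIT3 and SLC7A11 are highest in the Puro vector.

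Which members differed with loss of SRF binding was read from the constructs that lack it. As given above, MRTFB mRNA was also higher in these constructs, replicate for replicate, and its part was not tested. In MRTFB dN Y305A cells, set against MRTFB dN cells, DNAJB9, DNAJC3, HERPUD1, VLDLR and STC2 fell and TRIB3 rose, while 16.7% of all loci changed, 6.13% higher and 10.6% lower. A share of 6 in 38 is thus near the background. The same 6 genes changed in the same direction in MRTFB dN Y305A/dPY cells, set against MRTFB dN dPY cells, where a further 3 passed and 17.4% of all loci changed, 6.72% higher and 10.6% lower. These comparisons share no library, but both come from 1 fit with a common spread for each gene. Over loci, deviations of replicate 1 correlated between MRTFB dN Y305A/dPY and MRTFB dN Y305A (0.645) and between MRTFB dN dPY and MRTFB dN (0.582). The comparisons are therefore not fully independent. The 6 shared genes were 100% of those called in the first and 66.7% of the 9 called in the second, and over all loci the shared calls were 78.4% and 75.4%.

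STC2 had 30.1 and 32.6 FPKM in MRTFB dN Y305A cells, against 283 and 318 FPKM in MRTFB dN cells, a 9.32-fold fall (-3.22 ± 0.37, adjusted p = 0.00016). It had 9.10 and 16.4 FPKM in MRTFB dN Y305A/dPY cells, against 282 and 229 FPKM in MRTFB dN dPY cells, a 19.2-fold fall (-4.27 ± 0.37, adjusted p = 2e-05). No library of a Y305A construct came near a library with SRF binding. HERPUD1 had 26.6 and 25.9 FPKM in MRTFB dN Y305A cells, against 71.7 and 69.7 FPKM in MRTFB dN cells (-1.40 ± 0.29, adjusted p = 0.007). It had 21.0 and 19.3 FPKM in MRTFB dN Y305A/dPY cells, against 91.2 and 83.9 FPKM in MRTFB dN dPY cells, a 4.19-fold fall (-2.07 ± 0.29, adjusted p = 0.0006). The HERPUD1 replicates of these 4 groups differed by ratios of 1.03 to 1.09, and the groups did not overlap.

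DNAJC3 had 17.4 and 16.6 FPKM in MRTFB dN Y305A cells, against 41.2 and 48.6 FPKM in MRTFB dN cells (-1.35 ± 0.24, adjusted p = 0.0027). It had 22.7 and 20.5 FPKM in MRTFB dN Y305A/dPY cells, against 45.2 and 51.8 FPKM in MRTFB dN dPY cells (-1.13 ± 0.24, adjusted p = 0.0075). DNAJB9, its fellow co-chaperone, showed the same order. DNAJB9 had 16.4 and 8.21 FPKM in MRTFB dN Y305A cells, against 50.1 and 38.6 FPKM in MRTFB dN cells (-1.83 ± 0.49, adjusted p = 0.028). It had 13.4 and 8.81 FPKM in MRTFB dN Y305A/dPY cells, against 45.2 FPKM in MRTFB dN dPY replicate 2 (-1.96 ± 0.59, adjusted p = 0.049). VLDLR, at 2.80 and 2.31 FPKM in MRTFB dN Y305A cells, stood below its 13.4 and 11.2 FPKM in MRTFB dN cells (-1.90 ± 0.30, adjusted p = 0.0017), without overlap. VLDLR also fell in MRTFB dN Y305A/dPY cells, with 3.16 and 2.73 FPKM, against 15.9 FPKM in MRTFB dN dPY replicate 2 (-2.11 ± 0.36, adjusted p = 0.0031).

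TRIB3 ran the other way. It had 70.0 and 54.8 FPKM in MRTFB dN Y305A cells, against 13.0 and 14.8 FPKM in MRTFB dN cells, a 4.23-fold rise (2.08 ± 0.35, adjusted p = 0.0018). It had 29.6 and 25 FPKM in MRTFB dN Y305A/dPY cells, against 9.55 and 9.76 FPKM in MRTFB dN dPY cells (1.40 ± 0.35, adjusted p = 0.018). The MRTFB dN Y305A libraries held the highest TRIB3 values of all 14. PHGDH rose in MRTFB dN Y305A/dPY cells, at 33.0 and 32.5 FPKM, against 11.3 and 12.8 FPKM in MRTFB dN dPY cells (1.37 ± 0.43, adjusted p = 0.049). In MRTFB dN Y305A cells it had 66.0 and 51.0 FPKM, against 21.4 and 24.6 FPKM in MRTFB dN cells (1.30 ± 0.43, adjusted p = 0.063). Those groups were apart, but the call was missed. ASNS (0.83, adjusted p = 0.2), PSAT1 (0.88, adjusted p = 0.13) and SLC7A11 (0.96, adjusted p = 0.062) had positive values in MRTFB dN Y305A cells that did not pass. CHAC1, with 19.2 and 6.27 FPKM in MRTFB dN Y305A cells, against 4.76 and 5.44 FPKM in MRTFB dN cells, did not pass either (0.99 ± 0.55, adjusted p = 0.28).

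ATF4 had 201 and 199 FPKM in MRTFB dN Y305A cells, against 314 and 358 FPKM in MRTFB dN cells, and was not called (-0.74 ± 0.29, adjusted p = 0.11). It fell in MRTFB dN Y305A/dPY cells, with 137 and 154 FPKM, against 291 and 344 FPKM in MRTFB dN dPY cells (-1.12 ± 0.29, adjusted p = 0.021). MTHFD2 fell there too, with 44.3 and 21.0 FPKM in MRTFB dN Y305A/dPY cells, against 92.0 and 72.8 FPKM in MRTFB dN dPY cells (-1.39 ± 0.40, adjusted p = 0.033). Of the 18 ER genes only DNAJB9, DNAJC3 and HERPUD1 were called in either comparison, although 16 of the 18 had values below 0 in the first and 13 in the second. Over all 13137 loci tested 6252 had values below 0 in the first and 6151 in the second. HSPA5 had 364 and 290 FPKM in MRTFB dN Y305A cells, against 360 and 322 FPKM in MRTFB dN cells (-0.07 ± 0.52, adjusted p = 0.96). HSP90B1 had 638 and 308 FPKM in MRTFB dN Y305A cells, against 2220 and 652 FPKM in MRTFB dN cells (-1.44 ± 0.86, adjusted p = 0.32). XBP1 had 64.9 and 62.6 FPKM in MRTFB dN Y305A cells, against 93.6 and 77.8 FPKM in MRTFB dN cells (-0.42 ± 0.36, adjusted p = 0.51). HSPA5 overlapped, and HSP90B1 and XBP1 were lower in both MRTFB dN Y305A libraries without a call. The median of the 18 ER genes was -0.45 in the first comparison and -0.44 in the second, against 0.03 and 0.04 over all loci.

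Of the 6 genes called in MRTFB dN Y305A cells, 5 were called whichever library was left out, all but DNAJB9 (adjusted p = 0.19 without MRTFB dN Y305A replicate 2, 0.16 without MRTFB dN replicate 1 and 0.089 without MRTFB dN replicate 2). In the second comparison HERPUD1 and STC2 were, as was VLDLR in the 3 cases that could be run, while ATF4, TRIB3 and PHGDH were called in none of the 4 cases (adjusted p of 0.061 to 0.13, 0.056 to 0.097 and 0.14 to 0.19), DNAJB9 in none of 3 (0.068 to 0.18), DNAJC3 not without MRTFB dN Y305A/dPY replicate 2 (0.056) or MRTFB dN dPY replicate 2 (0.062), and MTHFD2 not without MRTFB dN Y305A/dPY replicate 2 (0.25) or MRTFB dN dPY replicate 1 (0.17) or 2 (0.084).

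**Figure D4:**
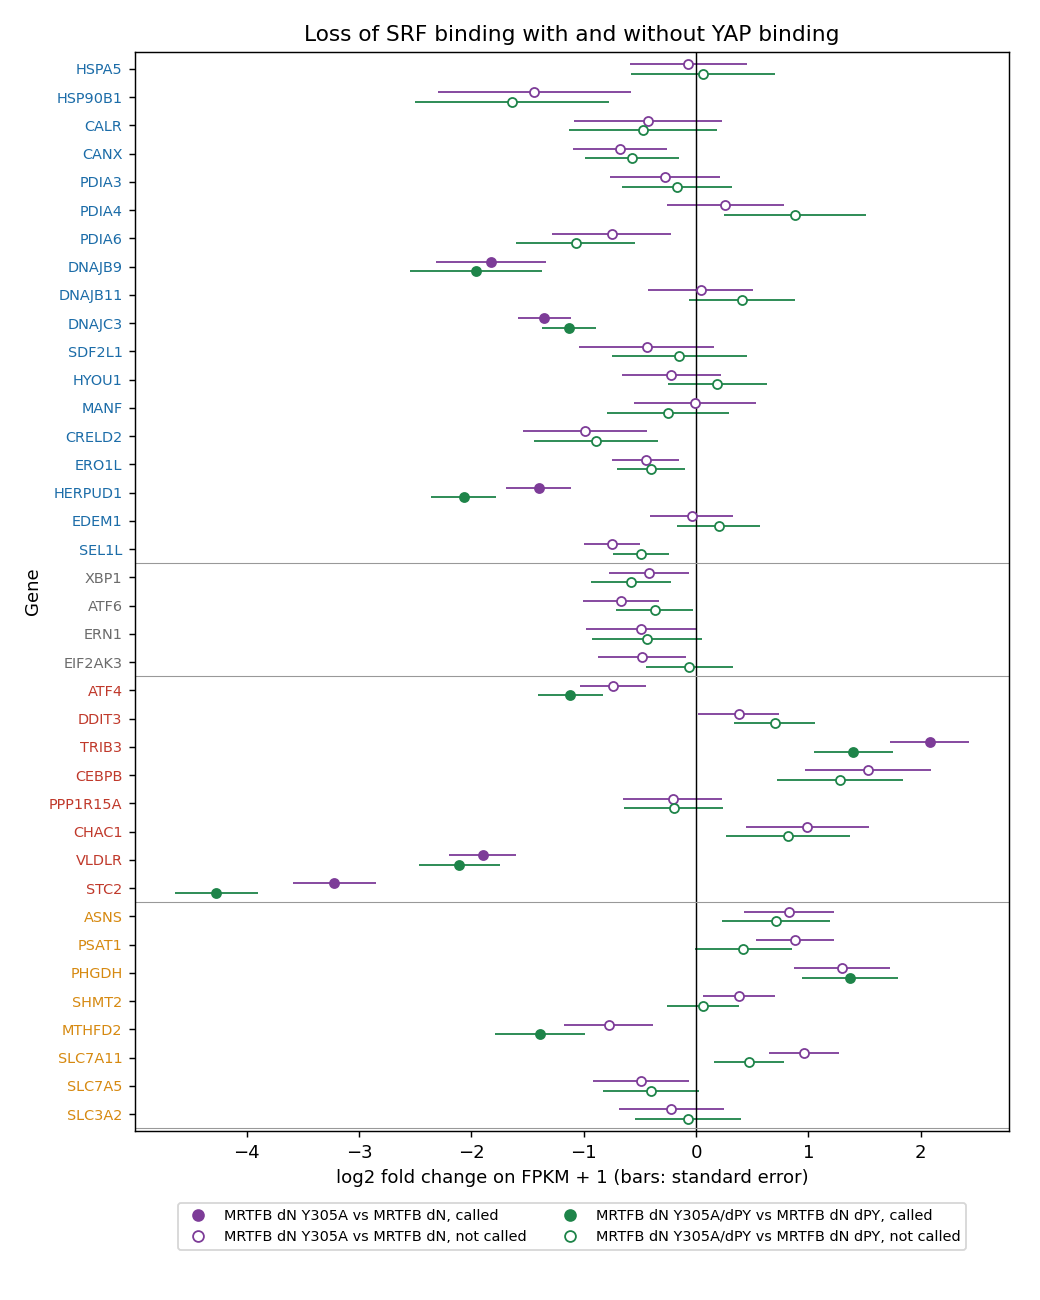
log2 fold change (on FPKM + 1) of each of the 38 genes in MRTFB dN Y305A against MRTFB dN cells (purple) and in MRTFB dN Y305A/dPY against MRTFB dN dPY cells (green). Points are estimates, bars standard errors, and filled points passed an adjusted p of 0.05. STC2 lies farthest left (-3.22 and -4.27), and TRIB3 lies right of 0 in both (2.08 and 1.40).

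Whether the effect of lost SRF binding depended on YAP binding was tested with an interaction term over the 4 MRTFB groups. No member passed, and 0.0228% of all loci passed, 0.0152% with a positive and 0.00761% with a negative term (limma). No member had an unadjusted p under 0.05, against 255 of all 13137 loci. Between MRTFB dN Y305A/dPY and MRTFB dN Y305A, which differ in YAP binding with SRF binding lost, no member passed either, and 0.0152% of all loci passed, 0% higher and 0.0152% lower. An unadjusted p under 0.05 was found for 4 of the 38 members and for 270 of all 13137 loci. There STC2 had 9.10 and 16.4 FPKM in MRTFB dN Y305A/dPY cells, against 30.1 and 32.6 FPKM in MRTFB dN Y305A cells (-1.28 ± 0.37, adjusted p = 1.0). TRIB3 had 29.6 and 25 FPKM in MRTFB dN Y305A/dPY cells, against 70.0 and 54.8 FPKM in MRTFB dN Y305A cells (-1.16 ± 0.35, adjusted p = 1.0). Both were lower in each MRTFB dN Y305A/dPY library, without reaching the threshold.

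The constructs without SRF binding were also set against the Puro vector. In MRTFB dN Y305A/dPY cells none rose and HERPUD1, STC2 and SLC7A11 fell, while 26.4% of all loci changed, 15% higher and 11.4% lower. HERPUD1 had 21.0 and 19.3 FPKM in MRTFB dN Y305A/dPY cells, against 30.9 and 60.1 FPKM in Puro vector cells (-1.06 ± 0.29, adjusted p = 0.024). STC2 had 9.10 and 16.4 FPKM in MRTFB dN Y305A/dPY cells, against 38.1 and 80.7 FPKM in Puro vector cells (-2.09 ± 0.37, adjusted p = 0.0051). SLC7A11 had 2.92 and 2.03 FPKM in MRTFB dN Y305A/dPY cells, against 13.3 and 10.9 FPKM in Puro vector cells (-1.92 ± 0.31, adjusted p = 0.0041). All 3 were among the genes higher in the Puro than in the Hygro vector. Against the Hygro vector HERPUD1 stood at -0.09 (adjusted p = 0.94), STC2 at 0.27 (adjusted p = 0.8) and SLC7A11 at 0.71 (adjusted p = 0.31), and only PHGDH was called, higher (2.04, adjusted p = 0.035), while 2.69% of all loci changed, 1.31% higher and 1.38% lower. SLC7A11 was called whichever library was left out, STC2 was not without MRTFB dN Y305A/dPY replicate 1 (adjusted p = 0.059), and HERPUD1 was not without replicate 1 (0.11) or 2 (0.076) of that group or without Puro vector replicate 2 (0.087).

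In MRTFB dN Y305A cells DDIT3 and SLC7A11 fell against the Puro vector and none rose, while 25.2% of all loci changed, 14.2% higher and 11% lower. DDIT3 had 4.34 and 4.60 FPKM in MRTFB dN Y305A cells, against 12.3 and 13.3 FPKM in Puro vector cells (-1.33 ± 0.36, adjusted p = 0.024). SLC7A11 had 4.65 and 3.06 FPKM in MRTFB dN Y305A cells, against 13.3 and 10.9 FPKM in Puro vector cells (-1.44 ± 0.31, adjusted p = 0.011). Neither group pair overlapped. Neither gene was lower against the Hygro vector (DDIT3 0.03, SLC7A11 1.19), where PSAT1 (1.83, adjusted p = 0.026), PHGDH (2.84, adjusted p = 0.0075) and MTHFD2 (1.80, adjusted p = 0.039) rose and 2.6% of all loci changed, 1.32% higher and 1.28% lower. DDIT3 was not called without either MRTFB dN Y305A replicate (adjusted p = 0.14 and 0.061) or without either Puro vector replicate (0.087 and 0.057), and SLC7A11 was not without either MRTFB dN Y305A replicate (0.063 and 0.052) or without Puro vector replicate 1 (0.065).

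YAP 5SA changed 3 of the 38 genes against the Hygro vector, all higher, while 8.21% of all loci changed, 3.91% higher and 4.3% lower. VLDLR had 5.33 and 4.95 FPKM in YAP 5SA cells, against 1.33 and 0.527 FPKM in Hygro vector cells (1.70 ± 0.30, adjusted p = 0.0092). STC2 had 32.4 and 24.3 FPKM in YAP 5SA cells, against 10.8 and 9.19 FPKM in Hygro vector cells (1.40 ± 0.37, adjusted p = 0.043). SLC7A11 had 3.55 and 5.08 FPKM in YAP 5SA cells, against 1.79 and 0.577 FPKM in Hygro vector cells (1.33 ± 0.31, adjusted p = 0.028). The groups did not overlap in any of the 3. None of the 18 ER genes passed, and their median was -0.27, against -0.01 over all loci. None of the 18 had an unadjusted p under 0.05, against 3070 of all 13137 loci. HSPA5 had 152 and 105 FPKM in YAP 5SA cells, against 149 and 190 FPKM in Hygro vector cells, with overlap (-0.41 ± 0.52, adjusted p = 0.71). ATF4 stood at 194 FPKM in both YAP 5SA libraries, against 127 and 170 FPKM in Hygro vector cells (0.40 ± 0.29, adjusted p = 0.45).

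No call in YAP 5SA cells was made without YAP 5SA replicate 1 (adjusted p = 0.072 for VLDLR, 0.22 for STC2 and 0.081 for SLC7A11) or replicate 2 (0.083, 0.16 and 0.25 in the same order), and STC2 was not called without Hygro vector replicate 1 (0.1) or 2 (0.16), nor SLC7A11 without Hygro vector replicate 2 (0.16). Against the Puro vector none rose and 5 fell, namely HERPUD1 (-1.37, adjusted p = 0.017), XBP1 (-1.34, adjusted p = 0.042), DDIT3 (-1.84, adjusted p = 0.012), ASNS (-2.31, adjusted p = 0.0075) and SLC7A11 (-1.31, adjusted p = 0.028), while 9.81% of all loci changed, 5.56% higher and 4.25% lower. VLDLR (0.79, adjusted p = 0.12) and STC2 (-0.96, adjusted p = 0.13) were not called against this vector. SLC7A11 thus lay between the vectors, higher than in Hygro vector cells and lower than in Puro vector cells.

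The ER genes were set against the ATF4 and amino acid genes by their mean log2(FPKM + 1) in each library, over the 15 ER, 7 ATF4 and 6 amino acid genes with a value in all 14. The ER mean exceeded the mean of the other groups together by 1.37 and 1.05 in MRTFB dN Y305A/dPY cells, 0.68 and 0.82 in MRTFB dN Y305A cells, 2.05 and 1.30 in MRTFB dN dPY cells, 1.92 and 1.10 in MRTFB dN cells, 0.82 and 0.74 in YAP 5SA cells, 0.32 and 0.75 in Puro vector cells, and 1.07 and 1.19 in Hygro vector cells. The lowest value was that of Puro vector replicate 1, the shallow library, and the highest those of replicate 1 of MRTFB dN dPY and MRTFB dN. MRTFB dN thus lay above both Puro vector libraries, but its replicate 2 (1.10) lay within the range of the Hygro vector. The ER mean was 7.05 and 6.45 in MRTFB dN cells, against 5.43 and 6.45 in Puro vector cells and 5.55 and 5.94 in Hygro vector cells.

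**Figure D5:**
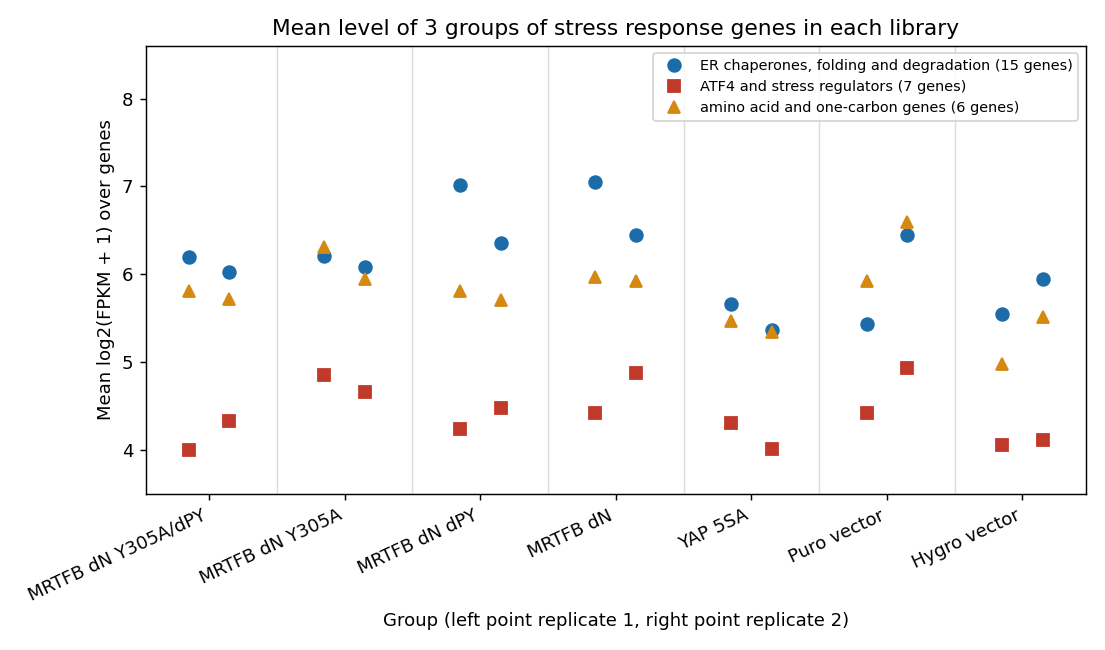
Mean log2(FPKM + 1) of the ER genes (blue circles, 15 genes), ATF4 and stress regulators (red squares, 7 genes) and amino acid and one-carbon genes (orange triangles, 6 genes) in each library, by group, with replicate 1 on the left. The ER mean is highest in replicate 1 of MRTFB dN (7.05) and MRTFB dN dPY (7.02), and the amino acid mean is lowest in Hygro vector replicate 1 (4.98).

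Related genes outside the 38 were read from lists of the same pathways. Of 29 other ER genes 10 rose and 1 fell in MRTFB dN against Puro vector cells, near the 36.8% of all loci called in either direction. By direction 21.8% of all loci were higher and 15% lower. The median of the 29 was 0.43, against 0.89 for the 18 members and 0.09 over all loci. Of 35 other ATF4 and amino acid genes 6 rose and 7 fell, near the 36.8% of all loci called in either direction. Against the Hygro vector 7 of the 29 rose and none fell (median 0.58), and 6 of the 35 rose and 3 fell (median 0.32). Over all loci 12% were higher there and 7.1% lower. For SEC24D, GDF15 and EIF2AK4 the vector comparisons below are with the Puro vector alone. The ER export gene SEC24D rose in MRTFB dN against Puro vector cells (2.11, adjusted p = 8.4e-05) and fell in MRTFB dN Y305A against MRTFB dN cells (-1.63, adjusted p = 0.00055), as STC2 did. GDF15, a secreted stress cytokine, was lower in MRTFB dN than in the other cells named here: it had 2.81 and 3.51 FPKM in MRTFB dN cells, against 74.9 and 139 FPKM in Puro vector cells (-4.63, adjusted p = 6.8e-05), and 25.3 and 39.4 FPKM in MRTFB dN Y305A cells (2.97 over MRTFB dN, adjusted p = 0.0016). EIF2AK4 (GCN2), the eIF2 kinase that senses uncharged tRNA, rose in MRTFB dN against Puro vector cells (1.60, adjusted p = 0.00041) and fell in MRTFB dN Y305A against MRTFB dN cells (-1.22, adjusted p = 0.0028).

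Heat shock genes, a separate stress response of the cytosol and, for HSPD1 and HSPE1, the mitochondria, gave different counts with each vector. Of 14 such genes 11 rose in MRTFB dN cells against the Puro vector (median 1.75), where 21.8% of all loci did. Against the Hygro vector 1 rose (median 0.19), where 12% of all loci did. In Puro vector cells 9 were lower than in Hygro vector cells (median -1.51), where 8.53% of all loci were. DNAJB1, an HSP40 co-chaperone, had 88.0 and 70.9 FPKM in MRTFB dN cells, against 24.6 and 21.7 FPKM in Puro vector cells and 91.6 and 104 FPKM in Hygro vector cells. The Puro vector libraries thus stood below all the others compared for DNAJB1 and above them for SLC7A11 and DDIT3.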

How the data were processed

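The authors deposited FPKM for 34071 loci, 1 column per library, made from strand-specific poly(A) libraries with Bowtie, TopHat, Cufflinks and Cuffnorm on hg19, per the submitters' processing notes. Tool versions, the annotation and the scaling are not given in the sources used here. FPKM carry no counts, so no counting interval can be given. Relative depth came from the commonest ratio between the lowest values of 2 libraries. The 6528 unnamed loci were left out. In MRTFB dN dPY replicate 1 the empty part (1547 named loci with a median of 1 FPKM or more elsewhere) was treated as missing.

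The test was limma 3.58.1 in R 4.3.3, applied to log2(FPKM + 1) of the 13137 named loci that reached 1 FPKM in 2 libraries or more (all 14 libraries in 1 fit, empirical Bayes with an intensity trend, 7 residual degrees of freedom and a prior of 3.76, two-sided). P-values were adjusted over all loci tested by Benjamini and Hochberg, with a threshold of 0.05. The fit was tested on simulated data. Tables used Python 3.11.15, numpy 2.4.6, pandas 2.3.3 and matplotlib 3.10.9. RefSeq tables served for names, gene order and promoters, and no coordinate was converted.

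The members, lists and comparisons were chosen with earlier results of these data known. Genes given with every library's value were HSPA5, HSP90B1, XBP1, HERPUD1, ATF4, DDIT3, TRIB3, CHAC1, ASNS, PSAT1, SLC7A11 and up to 5 called members a direction in each comparison, and up to 4 called genes of largest change in each other list. DNAJB1 was chosen after its values were seen, as were a few called members beyond 5. The comparison of MRTFB dN Y305A/dPY with MRTFB dN Y305A, the interaction term and the replicate block within the MRTFB groups were also added after seeing the data.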

Additional observations from a re-analysis of the deposited data

How the results depend on the processing

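All 10 comparisons of the report were repeated with a pseudocount of 0.1, median-of-ratios scaling and no intensity trend, which left each count of called members within 1.5 times its value. Called members are given below as the alternative against the count in the report. The share over all loci under each setting is not given in this section. Its counts therefore do not show whether the members moved more than other loci. Without the filter on low values 1 against 3 passed in YAP 5SA over Hygro vector, 9 against 15 in MRTFB dN dPY over Puro vector, 1 against 2 in MRTFB dN Y305A over Puro vector, 5 against 9 in MRTFB dN Y305A/dPY over MRTFB dN dPY, and 2 against 8 in Puro over Hygro vector. With only the compared groups fitted, 6 against 12 passed in MRTFB dN and 6 against 15 in MRTFB dN dPY over Puro vector, 0 against 2 in MRTFB dN Y305A over Puro vector, and 0 against 8 in Puro over Hygro vector. ATF4 was among the calls lost in MRTFB dN. Of the 12 called there, STC2 alone passed under every alternative other than leaving out a library. With the zeros of MRTFB dN dPY replicate 1 kept, 1 against 3 passed in YAP 5SA and 4 against 8 in Puro over Hygro vector, and DNAJB9 turned to -0.83 in MRTFB dN dPY over Puro vector and to 0.81 in MRTFB dN Y305A/dPY over MRTFB dN dPY. Here the cause is the zeros themselves. With the other vector as control 5 against 3 passed in YAP 5SA, 9 against 15 in MRTFB dN dPY and 1 against 3 in MRTFB dN Y305A/dPY. Signs then turned for STC2 (-0.96) and SLC7A11 (-1.31) in YAP 5SA, PHGDH (1.54) and SLC7A11 (0.23) in MRTFB dN, PHGDH (0.66) and SLC7A11 (0.25) in MRTFB dN dPY, DDIT3 (0.03) and SLC7A11 (1.19) in MRTFB dN Y305A, and STC2 (0.27) and SLC7A11 (0.71) in MRTFB dN Y305A/dPY. Elsewhere the cause was not tested.

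With 1 library left out, the number of called members ranged over 0 to 2 in YAP 5SA over Hygro vector, 4 to 17 in MRTFB dN, 7 to 18 in MRTFB dN dPY, 0 to 7 in MRTFB dN Y305A and 1 to 6 in MRTFB dN Y305A/dPY over Puro vector, 5 to 6 in MRTFB dN Y305A over MRTFB dN, 2 to 5 in MRTFB dN Y305A/dPY over MRTFB dN dPY, and 3 to 6 in Puro over Hygro vector. These fits assume that the lone library of a group varies like the other groups. Without MRTFB dN dPY replicate 2, the 6 genes missing in replicate 1 have no value there. The highest counts in the 4 comparisons with the Puro vector came without its replicate 2.

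The replicate numbers are shared across groups, but the labels do not say that they mark a shared culture or day. Deviations of replicate 1 correlated at 0.301 to 0.645 between the 4 MRTFB groups over genes, and at -0.145 to 0.233 in the other pairs of groups. With the replicate block over all groups the members called were 3, 12, 14, 2, 4, 0, 9, 8, 8 and 0, in the order YAP 5SA over Hygro vector, MRTFB dN, dPY, Y305A and Y305A/dPY over Puro vector, dPY over dN, Y305A over dN, Y305A/dPY over dPY, Puro over Hygro vector and Y305A/dPY over Y305A. With the replicate block in the MRTFB groups 20 against 12 passed in MRTFB dN, 10 against 2 in MRTFB dN Y305A and 9 against 3 in MRTFB dN Y305A/dPY over Puro vector, and 11 against 6 in MRTFB dN Y305A over MRTFB dN. Calls over all loci with this block are not given, so these higher counts are not read as a result about the members.

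With 2 libraries a group and no counts, differences in genes of wide replicate spread, such as HSP90B1, were not detectable unless large.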
